A study of Mus musculus with 40 samples.

Results

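Knockout livers sampled after 21 days of a purified diet were compared with knockout livers sampled after 12 days of it. The comparison used the 3 libraries labelled as knockout at day 21 that passed quality control (libraries 37, 38, and 40) and the 6 libraries labelled as knockout at day 12 (libraries 11, 12, 13, 32, 35, and 36). These are 9 of the 40 libraries of the series, and each library was made from the liver of 1 mouse. Of the 55487 genes in the count table, 20297 had enough counts to be tested. All mice were females of the C57BL/6JBomTac background in which both Nampt alleles were flanked by loxP sites (Nampt fl/fl). Hepatocyte-specific Nampt knockout (HNKO) mice also carried Alb-Cre+/-, and their WT littermates were floxed but had no Cre. The mice had eaten a fortified breeding chow since weaning and were 9 weeks old when the purified, L-amino-acid-defined, low-fat diet (PD) was introduced. The day in each group name is the number of days on PD in the study's methods, although the sample labels list it under age. The WT livers of the same days (5 libraries at day 12 and 5 at day 21) serve as the reference for what the interval did without the knockout. Because the albumin promoter drives Cre in hepatocytes, the Kupffer, stellate, endothelial, and other cells of these livers keep Nampt, and RNA from all of them was sequenced together.

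NAMPT makes nicotinamide mononucleotide from nicotinamide and is the entry step of the NAD salvage pathway, which hepatocytes use beside synthesis from tryptophan and from nicotinic acid. NAD is consumed by sirtuins, PARPs, and CD38 and serves as the electron carrier of most catabolic pathways. Injured liver is known for a sequence of responses in which hepatocytes secrete acute phase proteins, surviving cells enter the cell cycle, stellate cells lay down collagen, and ductal cells expand.

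Total counts ranged from 18400982 to 34392404 in the 6 HNKO libraries of day 12 (median 29443342) and from 21767223 to 28809772 in the 3 of day 21. Markers of liver were high in every library. Alb, which encodes albumin, lay between 15.91 and 16.48 log2 CPM (counts scaled to the library total, on the log2 scale) in all 9, and the hepatocyte markers together took 138410 to 159780 CPM at day 12 and 135320 to 157140 CPM at day 21. The share of mitochondrial rRNA ran with the library number. The 2 mitochondrial rRNAs took 0.949 to 2.14% of the counts in the libraries numbered 35 to 40 and 2.50 to 5.27% in the 32 other libraries that were kept. All 3 day-21 HNKO libraries belong to the former, whereas only libraries 35 and 36 of day 12 do. Library number and day thus overlap in part, and values within libraries 35 to 40 are given for some of the genes and lists. This grouping was made after the shares were seen. Libraries 17 and 18, the further pair of HNKO livers of day 21, are described as having failed quality control and were left out unless named.

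Nampt itself was similar at the 2 days. It ranged from 4.93 to 5.77 log2 CPM (median 5.67) in the day-12 HNKO livers and was at 5.55, 6.03, and 5.73 in libraries 37, 38, and 40. The ranges overlapped, and the log2 fold change of day 21 over day 12 was 0.24 ± 0.26 (SE, edgeR adjusted p = 0.817, exact two-sided permutation p = 0.345 over 84 regroupings, of which the smallest possible is 0.0119). All 9 HNKO libraries lay below the WT median of their day, which was 6.11 at day 12 and 6.44 at day 21. At day 12 the HNKO level was 0.82 lower than WT on the log2 scale (edgeR adjusted p = 0.0208), and at day 21 it was 0.69 lower (adjusted p = 0.161). The gene lies on chromosome 12 (GRCm38 32819545 to 32853349, plus strand). Within libraries 35 to 40 the difference between days was larger, at 0.67 (unadjusted p = 0.00766, adjusted p = 0.588), since library 35 had the lowest Nampt value of day 12 (4.93) and library 36 the next (5.30).

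Between day 12 and day 21, 0 of 20297 genes (0%) in HNKO liver passed an adjusted p of 0.05 with edgeR's quasi-likelihood test, and the smallest adjusted p was 0.172. At an unadjusted p under 0.05 there were 1752 genes (8.63%), of which 727 were higher (3.58%) and 1025 were lower (5.05%) at day 21. With only the libraries numbered 22 to 41, 627 of 20557 genes were higher and 515 lower, and the smallest adjusted p was 0.858. DESeq2 called 15 of the 20297 genes, with Pkhd1 higher and 14 genes lower. It gave no adjusted p to part of these genes, such as Gtf3c5, so its adjustment did not cover all genes of the edgeR test. Since no gene passed the edgeR test, differences are given as values with their standard errors, and the p-values of single genes below are unadjusted unless named as adjusted. With 3 livers at day 21, the median standard error of a log2 fold change was 0.227, and 585 genes had a log2 fold change beyond 1 in either direction. The libraries of the 2 days did not overlap in 760 genes, 353 of them higher (1.74% of the genes tested) and 407 lower (2.01%) at day 21. In WT liver the same interval gave 1 called gene (0.00493%) and 2522 genes at an unadjusted p under 0.05 (12.4%), with 1139 higher (5.61%) and 1383 lower (6.81%). The called WT gene was Mindy4, singled out here after its values were seen, which had a log2 fold change of 1.04 in WT (adjusted p = 0.00184) and 0.44 in HNKO (adjusted p = 0.490). A difference between the genotypes in the effect of the interval was called for 0 genes (0%, smallest adjusted p 0.9998), with 637 genes at an unadjusted p under 0.05 (3.14%). The comparison of HNKO with WT called 1588 genes at day 12 (7.82%) and 634 at day 21 (3.12%) in the same fit, with the same HNKO libraries. It used 6 HNKO and 5 WT livers at day 12 but 3 HNKO and 5 WT livers at day 21, so these counts rest on unequal numbers of livers. The livers of a group also differed among themselves, with a median SD between libraries of 0.284 at day 12 and 0.228 at day 21 in HNKO.

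The 10 higher and the 10 lower genes with the smallest unadjusted p among those whose libraries do not overlap were chosen by that p, so their fold changes and p-values are a description of the top of the ranking. None was called. The absolute log2 fold change of these 20 genes ranged from 0.27 to 1.25. In libraries 35 to 40 alone, 13 of the 20 had an unadjusted p under 0.05 (where 3.29% of 19125 genes were higher and 3.37% lower), but these libraries took part in the choice of the genes. Most of the 20 differences were small and tight, with every day-21 liver just beyond the range of the 6 day-12 livers.

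Pkhd1 led the higher genes. It encodes fibrocystin, a ciliary membrane protein of bile duct cells, and lies on chromosome 1 (GRCm38 20057779 to 20618064, minus strand). At day 12 its levels ran from 5.96 to 6.32 log2 CPM (median 6.12), and libraries 37, 38, and 40 were at 6.82, 6.54, and 6.71. All 3 day-21 livers thus exceeded all 6 day-12 livers. The log2 fold change was 0.56 ± 0.12 (SE, unadjusted p = 6.56e-05, edgeR adjusted p = 0.292). Pkhd1 was already higher in HNKO than in WT at day 12, by 0.55 (adjusted p = 0.00337), and at day 21 the difference was 0.80 (adjusted p = 0.000965). In WT liver the interval gave 0.32 (unadjusted p = 0.00823), and the 2 effects of the interval were not told apart (unadjusted p = 0.158 for the difference between genotypes). The log2 fold change was 0.55 within libraries 35 to 40, and libraries 17 and 18, on a scale set over all 40 libraries, had 7.09 and 6.94. Over the 22 alternative settings the log2 fold change stayed between 0.49 and 0.69, and it passed the adjusted threshold in 2 of them.

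Hgf, the growth factor that stellate and other mesenchymal cells make for hepatocytes, was at 5.59 to 5.71 log2 CPM at day 12 (median 5.65) and at 6.11, 5.89, and 6.04 in libraries 37, 38, and 40 (log2 fold change 0.37 ± 0.11, adjusted p = 0.485). Its WT levels gave -0.01 over the same interval, and the difference between genotypes had unadjusted p = 0.0159. The Hgf value depended on leaving out the failed libraries 17 and 18, which were at 4.70 and 5.79 on the scale over all 40 libraries, and with them included it was 0.14 (unadjusted p = 0.332). Pdlim5, a PDZ and LIM domain scaffold, showed the same split, with a log2 fold change of 0.27 in HNKO and -0.05 in WT (unadjusted p = 0.0041 for the difference). These 2 were the only genes of the 20 whose WT fold change had the opposite sign. Zdhhc2, which encodes a palmitoyltransferase, had the largest log2 fold change of the 20 at 1.25 ± 0.32, but its counts were low, with -0.99 to 0.40 log2 CPM at day 12 and 1.48, 0.91, and 0.79 in libraries 37, 38, and 40. Emid1, encoding an extracellular matrix protein, was lower still (-1.75 to -0.63 log2 CPM at day 12, and -0.01, -0.54, and -0.30 at day 21, log2 fold change 1.03 ± 0.29). The remaining higher genes were Rras2, a Ras family GTPase (0.33 ± 0.09), Eps15, an endocytic adaptor (0.31 ± 0.09), Lancl1, which binds glutathione (0.32 ± 0.09), Zranb3, a translocase of stalled replication forks (0.45 ± 0.14), and Igsf5, a junctional adhesion protein (0.32 ± 0.09). For Igsf5, 28.8% of its 51-base stretches also occur in another annotated gene of the same symbol, so its counts are less certain. With libraries 17 and 18 included the values of Emid1, Eps15, and Rras2 also came nearer to 0, at 0.40, 0.13, and 0.14, while Zranb3 had 0.69. Within libraries 35 to 40 Igsf5 had 0.21.

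Wbp1l, encoding a WW domain binding protein, led the lower genes and lies on chromosome 19 (GRCm38 46599084 to 46657389). It ranged from 7.92 to 8.19 log2 CPM at day 12 (median 7.998) and was at 7.54, 7.77, and 7.48 in libraries 37, 38, and 40. The log2 fold change was -0.44 ± 0.09 (unadjusted p = 2.54e-05, edgeR adjusted p = 0.172), the WT value was -0.23 (unadjusted p = 0.00682), and libraries 35 to 40 alone gave -0.46. With libraries 17 and 18 included it was -0.25. Men1, which encodes menin, a scaffold of histone methyltransferase complexes, was at 4.14 to 4.59 log2 CPM at day 12 (median 4.42) and at 3.90, 4.06, and 3.95 at day 21 (-0.42 ± 0.09, adjusted p = 0.292). Its WT value of -0.29 (unadjusted p = 0.00144) pointed the same way, and libraries 35 to 40 alone gave -0.24 (unadjusted p = 0.0862). Fth1, the heavy chain of ferritin, the iron store of the cell, was an abundant member of the group, at 8.92 to 9.24 log2 CPM at day 12 and 8.76, 8.83, and 8.64 at day 21 (-0.41 ± 0.10, adjusted p = 0.485). Gtf3c5, a subunit of the RNA polymerase III factor TFIIIC, had a log2 fold change of -0.51 ± 0.12, and Psmd3, a subunit of the proteasome's regulatory particle, had -0.41 ± 0.11.

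Anp32a, a nuclear phosphoprotein and histone chaperone, had the largest negative value of the 20 in the fit over 38 libraries (-0.79 ± 0.21). Its day-12 levels fell into 2 sets by library number, 6.72 to 6.80 log2 CPM in libraries 11, 12, and 13 and 5.99 to 6.02 in libraries 32, 35, and 36, while the day-21 livers were at 5.51, 5.53, and 5.83. With only the libraries numbered 22 to 41 its value was -0.37 (unadjusted p = 0.0461), nearer to 0 than those of Ntn4 (-0.55) and Wbp1l (-0.41), and it was -0.37 within libraries 35 to 40 as well. WT liver gave -0.84 over the interval (unadjusted p = 4.44e-05). Slc3a2, the heavy chain of amino acid transporters, had -0.51 ± 0.13, Ntn4, a secreted netrin of basement membranes, had -0.55 ± 0.14, and Dtnbp1, a subunit of the BLOC-1 trafficking complex, had -0.33 ± 0.09. Slc3a2 had -0.30 within libraries 35 to 40 (unadjusted p = 0.064), and Ntn4 had -0.34 with libraries 17 and 18 included. In Dtnbp1 the WT value was -0.01 (unadjusted p = 0.00812 for the difference between genotypes). Fam104a, of which 42.6% overlaps Cog1 on the opposite strand, had -0.45 ± 0.11, and reads of the pair cannot be told apart if counting ignored the strand. In WT liver, which shares no library with this comparison, 18 of the 20 genes had the same sign. The 18 include Dtnbp1 at -0.01, and the share of all genes with the same sign in both genotypes was not determined. In WT liver 8 of the 20 had an unadjusted p under 0.05, beside 12.4% of all genes. Of the 20, the HNKO livers differed from WT in 5 at day 12 and in 9 at day 21 by the adjusted threshold, where 7.82 and 3.12% of all genes did, but those comparisons use the same HNKO libraries that chose the genes. DESeq2 called 6 of the 20, Pkhd1, Wbp1l, Men1, Fth1, Slc3a2, and Anp32a. It gave no adjusted p to Zdhhc2, Emid1, Igsf5, Zranb3, Gtf3c5, and Fam104a, which were thus not judged by its threshold. The plot of these 20 genes shows every liver.

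**Figure D1:**
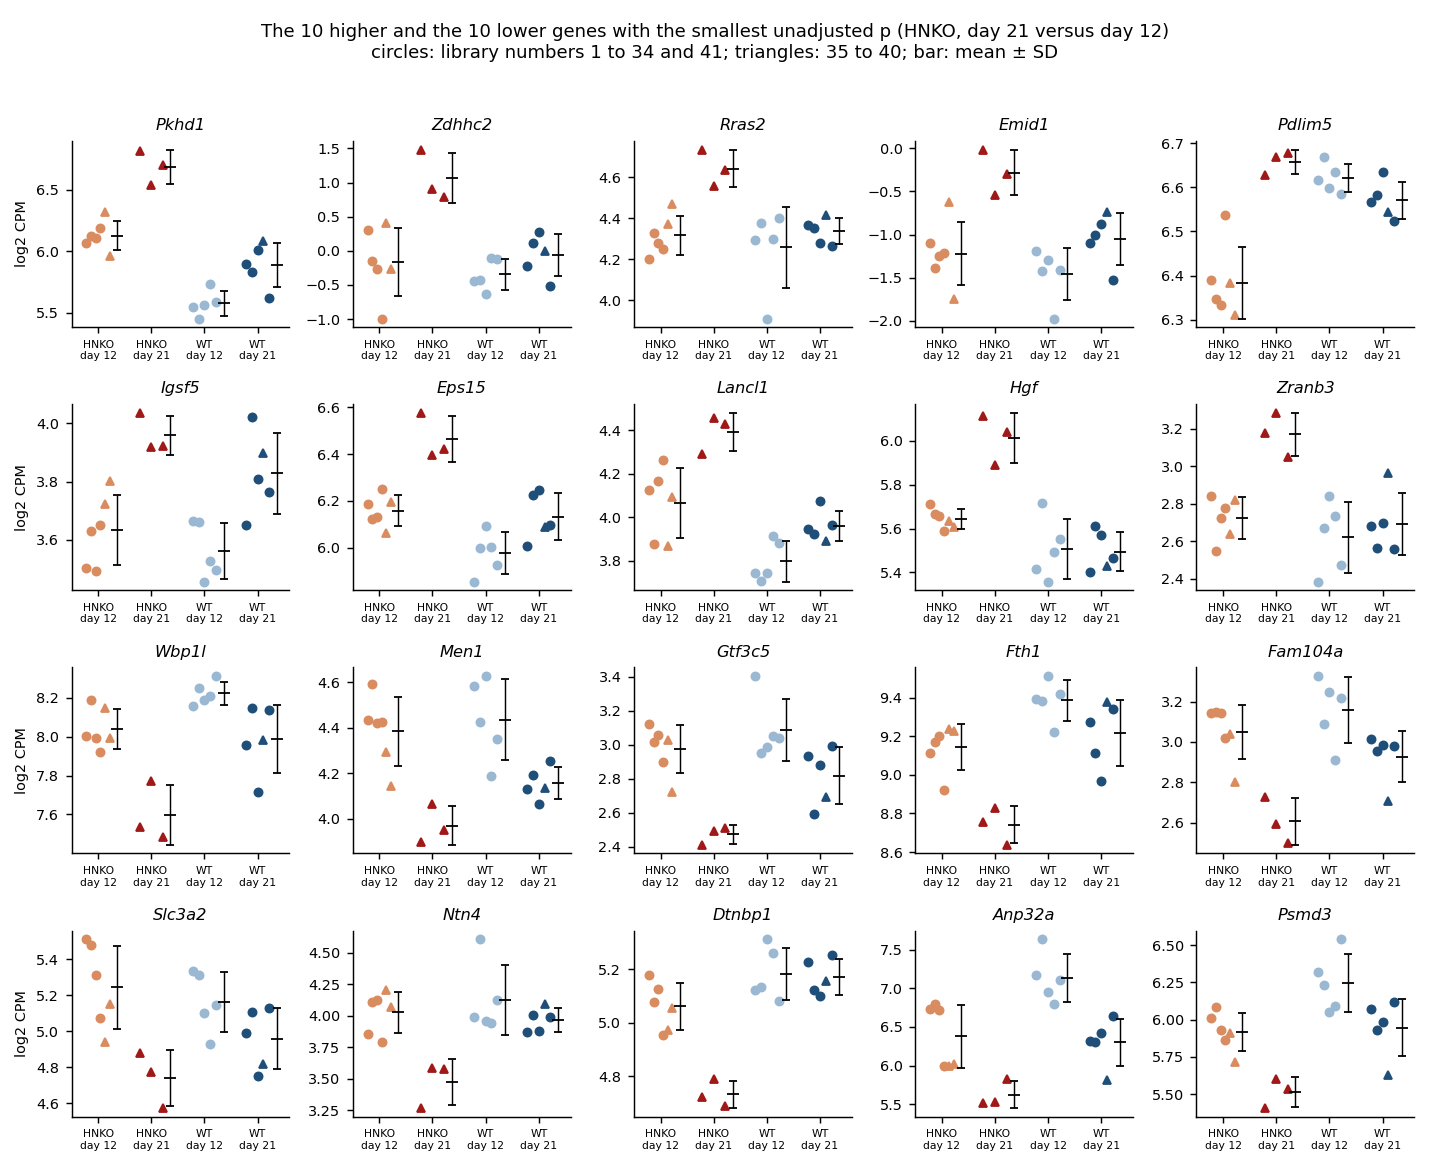
Each panel plots 1 gene, with log2 CPM on the vertical axis (scaled to that gene) and HNKO and WT livers of day 12 and day 21 on the horizontal axis. Points are single livers, triangles are libraries 35 to 40, and bars are the mean ± SD. In all 20 panels the 3 day-21 HNKO livers lie outside the range of the 6 day-12 HNKO livers, which is how the genes were chosen.

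The enzymes of NAD synthesis gave few differences. Of 14 genes of NAD salvage and the Preiss-Handler route from nicotinic acid, 0 had an unadjusted p under 0.05 in either direction. Of all genes, 3.58% were higher and 5.05% lower. The median log2 fold change of the list was 0.01, beside 0.0038 over all genes tested. The smallest p of the list was that of Nadsyn1, NAD synthetase, the last enzyme of the Preiss-Handler route, which was at 4.73 to 5.11 log2 CPM at day 12 and at 4.74, 4.86, and 4.75 at day 21 (-0.15 ± 0.09, unadjusted p = 0.0889). In WT liver Nadsyn1 had 0.20, and the difference between genotypes had unadjusted p = 0.00545. Naprt, which starts that route, had -0.15 ± 0.12. Of 10 genes from tryptophan to NAD, 8 had negative values and 1 was lower at an unadjusted p under 0.05 (10%, beside the 5.05%). That gene was Haao, the dioxygenase that makes quinolinate's precursor, at 8.44 to 8.78 log2 CPM in all day-12 livers and at 7.83, 8.28, and 8.40 at day 21 (-0.46 ± 0.20, unadjusted p = 0.0255). WT liver had nearly the same value for Haao (-0.45, unadjusted p = 0.0155).

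Among 18 NAD-consuming enzymes, 4 were lower (22.2%) and 0 higher at an unadjusted p under 0.05, where 5.05% of all genes were lower and 3.58% higher, and the median was 0.02. Sirt2, a mostly cytoplasmic deacetylase, had a log2 fold change of -0.34 ± 0.13 (unadjusted p = 0.012, adjusted p = 0.492). Its levels of 4.77 to 5.39 log2 CPM at day 12 overlapped with 4.61, 4.85, and 4.86 at day 21. Sirt6, a chromatin-bound sirtuin, had -0.39 ± 0.18, and its day-21 livers (1.67, 1.35, and 1.63 log2 CPM) lay below the lowest day-12 value of 1.68, in library 37 only in the third decimal. Parp1, the main poly(ADP-ribose) polymerase of DNA damage, had -0.15 ± 0.07 in HNKO and -0.25 in WT (unadjusted p = 0.0375 and 0.000339). The count of 4 depended on single livers, since it was 1 without library 11, 12, 13, or 40, 2 without library 37 or 38, and it was 0 within libraries 35 to 40.

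Cell cycle genes stood highest of all 44 lists in their median. Of 38 tested genes of the cell cycle and mitosis, 12 were higher (31.6%) and 0 lower at an unadjusted p under 0.05, where 3.58% of all genes were higher, and the median log2 fold change was 0.74 in HNKO and 0.18 in WT. The difference between genotypes had an unadjusted p under 0.05 in 0 of the 38, beside 3.14% of all genes. The members were measured in the same 9 livers, so their counts are not independent of each other. The levels of 2 of the 3 day-21 livers made up this difference. Against each gene's mean at day 12, the median member stood 1.38 higher in library 37 and 0.80 higher in library 38, but 0.25 lower in library 40. Library 37 exceeded every day-12 liver in 26 of the 38 genes, library 38 in 22, and library 40 in 1. In bulk liver RNA, more cycling cells and more of these transcripts per cycling cell cannot be told apart.

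Aurkb, the kinase of the chromosomal passenger complex, was at -2.48 to 0.23 log2 CPM at day 12 (median -0.34) and at 1.84, 1.68, and -0.30 in libraries 37, 38, and 40. The first 2 values lie above every day-12 liver and the last lies within their range. Its log2 fold change was 1.84 ± 0.59 (unadjusted p = 0.00363, edgeR adjusted p = 0.485), against 0.12 in WT. Ccnb2, the mitotic cyclin B2, ranged from -0.56 to 0.96 (median 0.28) at day 12 and was at 2.38, 1.98, and -0.05 at day 21 (1.505 ± 0.53, unadjusted p = 0.00789). Kif11, the kinesin that separates the spindle poles, ranged from 0.87 to 1.88 (median 1.38) and was at 3.13, 2.75, and 1.38 (1.22 ± 0.43, unadjusted p = 0.00748). The order of libraries 37, 38, and 40 was the same in all 3 genes. Ccnd1, cyclin D1, which acts before replication and was the most abundant member, had 0.09 ± 0.35.

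The promoters of Ccnb2 and Kif11 are shown because their genes moved together across the 9 livers and because both hold the pair of short elements known from G2/M promoters, CCAAT and TTTGAA, searched on both strands and set in capitals (read as ATTGG and TTCAAA where they lie on the opposite strand). The RefSeq sequences (GRCm38.p6) run from 250 bases before to 50 after the annotated start, with Ccnb2 at chr9:70421505-70421804 on the minus strand and Kif11 at chr19:37376132-37376431 on the plus strand.
Ccnb2: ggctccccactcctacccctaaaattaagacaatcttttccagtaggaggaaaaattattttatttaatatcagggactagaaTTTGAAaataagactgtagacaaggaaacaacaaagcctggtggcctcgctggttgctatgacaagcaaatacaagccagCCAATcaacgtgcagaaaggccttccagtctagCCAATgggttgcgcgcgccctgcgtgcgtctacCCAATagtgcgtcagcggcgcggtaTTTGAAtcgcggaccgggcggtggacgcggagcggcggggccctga
Kif11: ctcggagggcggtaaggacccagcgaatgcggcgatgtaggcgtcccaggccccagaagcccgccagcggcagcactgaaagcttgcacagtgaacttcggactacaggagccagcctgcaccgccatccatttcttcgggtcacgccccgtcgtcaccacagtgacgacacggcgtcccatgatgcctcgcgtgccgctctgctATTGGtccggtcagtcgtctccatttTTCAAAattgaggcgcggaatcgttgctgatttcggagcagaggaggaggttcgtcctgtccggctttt
The Ccnb2 window holds 3 CCAAT and 2 TTTGAA matches and the Kif11 window 1 of each. Over the list, 34 promoters of 31 genes were matched, of which 28 hold CCAAT (82.4%), 18 hold TTTGAA (52.9%), and 17 of the 34 hold both. Among all 32851 RefSeq promoters of this length, the shares are 37.4%, 17.9%, and 6.95%. A match is a run of letters and not a measured binding site, and no match overlaps another in the 2 windows shown.

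Replication-dependent histones followed the same livers. These genes encode the core and linker histones that cells make during DNA replication, from mRNAs without a poly(A) tail that rRNA-depleted libraries capture. Of 44 tested, 19 were higher (43.2%) and 0 lower at an unadjusted p under 0.05, where 3.58% of all genes were higher and 5.05% lower. Positive values were found in 42, and the median was 0.70 in HNKO and 0.04 in WT. The difference between genotypes had an unadjusted p under 0.05 in 3 of the 44, beside 3.14% of all genes. Library 37 exceeded every day-12 liver in 37 genes, library 38 in 28, and library 40 in 7. Hist1h2bm, an H2B gene, was at -0.99 to -0.32 log2 CPM at day 12 and at 1.99, 1.30, and 0.04 at day 21, with no overlap (1.93 ± 0.59, unadjusted p = 0.00235, adjusted p = 0.485). Its WT value was 1.35 (unadjusted p = 0.0591). Hist1h4f, an H4 gene, had 0.65 ± 0.23 in HNKO and -0.09 in WT (unadjusted p = 0.0221 for the difference), and Hist1h4n had 1.03 ± 0.34. Histone genes are near copies of each other. Between 38.7 and 85.5% of the 51-base stretches of these 3 genes occur in other genes, so the count of a single histone gene is uncertain.

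Without library 37 the counts of higher genes dropped to 1 of the cell cycle list and 3 of the histone list, with medians of 0.43 in both, and without library 40 they were 22 and 25 (medians 1.11 and 0.90). Leaving out library 13 gave 19 higher cell cycle genes, and leaving out library 38 gave 11 higher histone genes. Within libraries 35 to 40 they were 13 and 8 (medians 1.07 and 0.54), where 3.29% of 19125 genes were higher and 3.37% lower. With libraries 17 and 18 included they were 7 and 4 (medians 0.45 and 0.28), where 8.51% of 19981 genes were higher, so the histone count of 4 of 44 was near the background. In these libraries Aurkb was at 3.29 and 0.16, Ccnb2 was at -3.76, where a count of 0 is placed, and at 1.76, and Kif11 at -1.72 and 2.42, so library 17 gave values both above and below all 9 livers. Markers of T, NK, and B cells, which can also cycle, summed to 12.1 to 22.5 CPM at day 12 and 12.5 to 21.3 CPM at day 21, with 0 of 17 at an unadjusted p under 0.05, and their part in the cell cycle values was not tested. The p53 targets, which respond to DNA damage and arrest the cycle, included 21 positive values of 23 in the fit over 38 libraries. At an unadjusted p under 0.05, 2 of them were higher (8.7%), where 3.58% of all genes were. The 2 were Plk2 (0.44 ± 0.18) and Psrc1 (1.33 ± 0.62). Phlda3, at 2.85 in library 37 and 0.98 and 1.03 in libraries 38 and 40, showed the same standing of library 37.

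**Figure D2:**
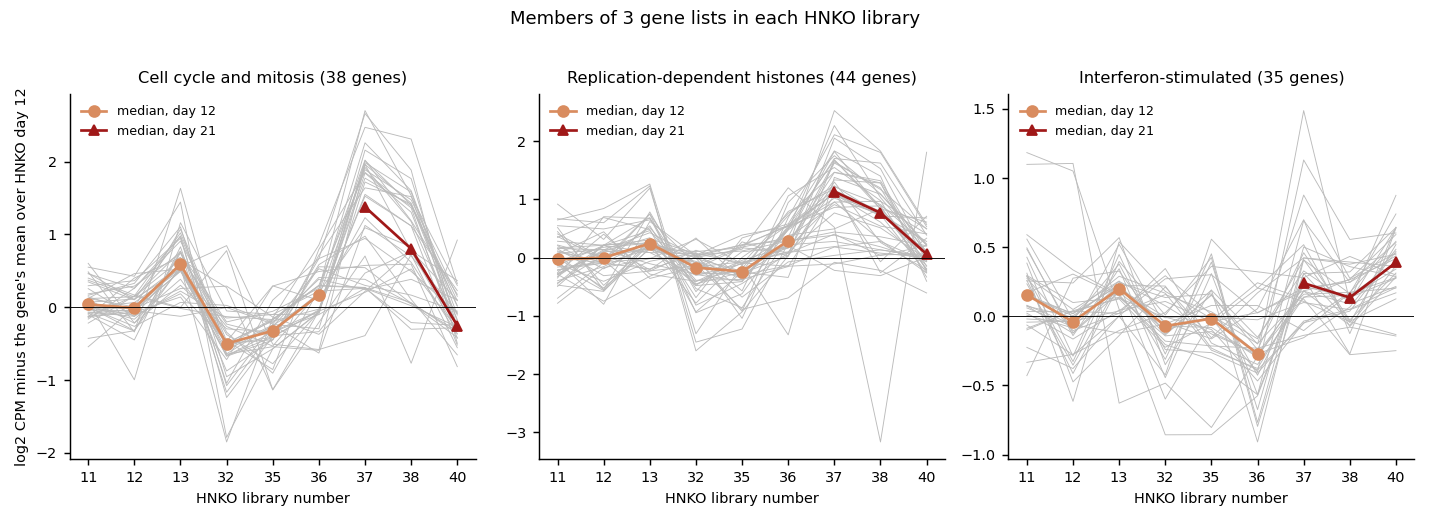
Panels show the cell cycle, histone, and interferon lists, with HNKO libraries on the horizontal axis and, on the vertical axis, log2 CPM minus the mean of the same gene over the day-12 HNKO livers. Grey lines are single genes and coloured points are list medians (circles day 12, triangles day 21). The cell cycle median is 1.38 in library 37, 0.80 in library 38, and -0.25 in library 40, whereas the interferon median is highest in library 40 (0.39).

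Acute phase genes, which hepatocytes transcribe in response to IL-6 and IL-1, were lower at day 21 in 8 of 29 members (27.6%) and higher in 0 at an unadjusted p under 0.05, where 5.05% of all genes were lower. The median log2 fold change was -0.31 in HNKO and -0.05 in WT, and 27 of 29 HNKO values were negative. For the difference between genotypes, 2 of the 29 had an unadjusted p under 0.05, beside 3.14% of all genes. The serum amyloids had the largest values and the widest spread. Saa1 was at 8.25, 8.38, 8.04, 4.45, 4.49, and 7.70 log2 CPM in libraries 11, 12, 13, 32, 35, and 36, and at 5.76, 4.85, and 5.08 in libraries 37, 38, and 40. Day-12 livers thus split into 4 high and 2 low ones, and the 3 day-21 livers lay between the sets, above the 2 low ones and far below the 4 high ones. The log2 fold change was -2.30 ± 0.63 (unadjusted p = 0.000819, adjusted p = 0.485), against 0.38 in WT (unadjusted p = 0.00183 for the difference between genotypes). Saa2 split in the same way, with 4.05 to 8.03 at day 12 (median 7.10) and 5.36, 4.04, and 4.71 at day 21 (-2.28 ± 0.63), library 38 being level with the low set. In WT liver Saa1 ranged from 3.31 to 4.14 at day 12, so the 2 low HNKO livers of day 12 were just above the WT range. Mt1, a metallothionein that binds zinc and copper, did not overlap between the days, with 7.03 to 8.98 at day 12 (median 8.18) and 6.78, 6.18, and 5.73 at day 21 (-1.92 ± 0.61, unadjusted p = 0.00357). Its WT values were spread widely, and their log2 fold change was -0.55 (unadjusted p = 0.277).

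Fga, a fibrinogen chain and the most abundant member, had -0.32 ± 0.20. The summed level of the 29 genes was 25336 to 45317 CPM at day 12 and 31610 to 33573 CPM at day 21 in HNKO, which overlap. Without single livers the count of lower members ranged from 4 (without library 40) to 10 (without library 35), and it was 5 without library 11 or 13. It was 3 within libraries 35 to 40, with 1 higher and a median of -0.02, since library 35 had the lowest median of day 12 (-0.55 against the day-12 mean). Saa1 still had -1.56 there (unadjusted p = 0.0844) and Mt1 -1.48 (unadjusted p = 0.00987). DESeq2 called both Saa1 (adjusted p = 0.0433) and Saa2 (adjusted p = 0.0462).

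Saa1 and Saa2 are neighbours on chromosome 7 that point away from each other, and 30.9 and 29.5% of their 51-base stretches are shared, so reads could pass between them in counting. Their promoters are shown because the genes varied together across the livers and because the 2 windows are nearly the same sequence. Capitals mark the bases that differ or are absent in the other gene (RefSeq, GRCm38.p6, 250 bases before to 50 after the start, Saa1 at chr7:46742931-46743230 on the minus strand and Saa2 at chr7:46751583-46751882 on the plus strand).
Saa1: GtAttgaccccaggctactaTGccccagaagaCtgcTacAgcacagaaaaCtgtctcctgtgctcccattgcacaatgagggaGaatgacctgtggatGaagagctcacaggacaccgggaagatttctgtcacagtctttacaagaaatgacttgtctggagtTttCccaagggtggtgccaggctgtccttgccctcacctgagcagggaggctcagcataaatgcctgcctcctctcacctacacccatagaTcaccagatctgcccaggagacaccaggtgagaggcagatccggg
Saa2: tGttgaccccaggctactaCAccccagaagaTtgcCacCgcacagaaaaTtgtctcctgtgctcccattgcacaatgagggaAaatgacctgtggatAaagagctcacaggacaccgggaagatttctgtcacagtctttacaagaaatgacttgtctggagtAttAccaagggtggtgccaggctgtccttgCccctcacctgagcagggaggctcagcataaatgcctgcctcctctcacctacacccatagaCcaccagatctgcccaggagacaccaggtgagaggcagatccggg
Aligned over 301 columns, the windows are identical in 287 (95.3%).

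**Figure D3:**
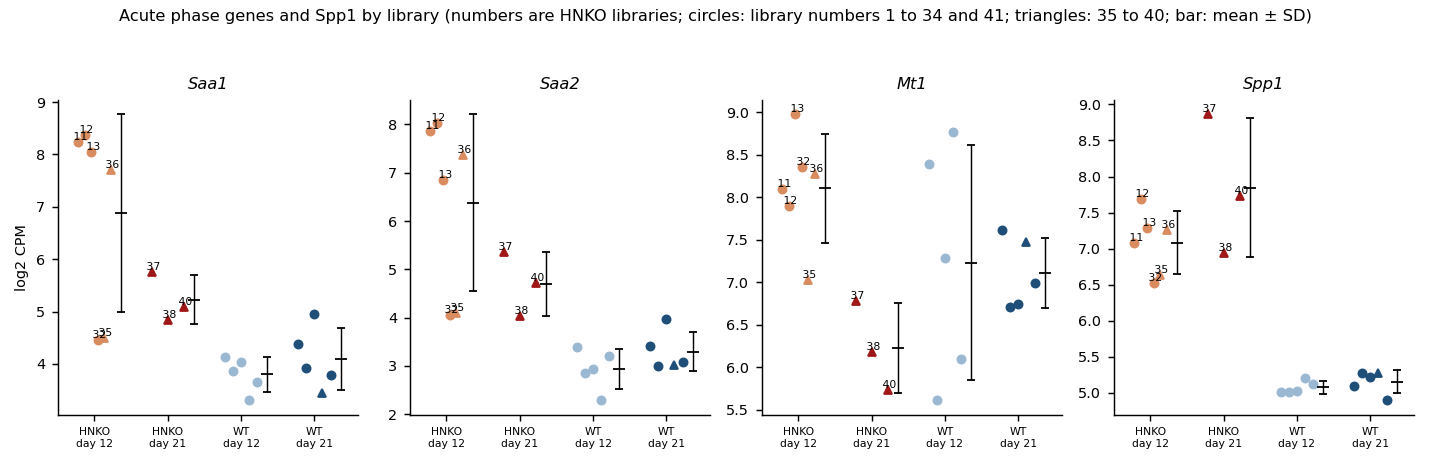
Each panel plots log2 CPM (vertical axis) of Saa1, Saa2, Mt1, or Spp1 by genotype and day (horizontal axis), with HNKO libraries numbered, triangles for libraries 35 to 40, and bars for the mean ± SD. The Saa1 panel shows HNKO libraries 32 and 35 at 4.45 and 4.49 and the other day-12 HNKO livers at 7.70 to 8.38. In the Spp1 panel all HNKO livers lie above all WT livers, and library 37 is highest at 8.86.

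Interferon-stimulated genes were higher in 7 of 35 members and lower in 0 at an unadjusted p under 0.05, where 3.58% of all genes were higher, and 32 of 35 values were positive. The median was 0.23 in HNKO and 0.01 in WT. For the difference between genotypes, 3 of the 35 had an unadjusted p under 0.05, beside 3.14% of all genes. All 3 day-21 livers stood above the day-12 mean in the median member, by 0.24 in library 37, 0.14 in library 38, and 0.39 in library 40. The livers overlapped, since day-12 libraries 11 and 13 stood 0.16 and 0.20 above that mean and thus above library 38. Ifi27l2a, a small mitochondrial protein induced by interferon, was at 2.13 to 3.29 log2 CPM at day 12 (median 2.83) and at 3.88, 3.30, and 3.35 at day 21, just without overlap (0.74 ± 0.26, unadjusted p = 0.00794, adjusted p = 0.485). Ifit2, which binds viral RNA, was at 3.18 to 3.94 (median 3.62) and at 4.49, 3.88, and 4.07, with library 38 inside the day-12 range (0.54 ± 0.19, unadjusted p = 0.00756). Ifit3b had 0.47 ± 0.18 in HNKO and -0.14 in WT (unadjusted p = 0.0161 for the difference), but 44.5% of its 51-base stretches are shared, almost all with Ifit3. The summed level of the list was 940 to 1234 CPM at day 12 and 1225 to 1563 CPM at day 21, and in WT it was 1061 to 1340 and 1090 to 1329 CPM. The day-12 HNKO livers thus had levels close to WT. Within libraries 35 to 40, 14 members were higher and 1 lower (median 0.42), where 3.29% of 19125 genes were higher and 3.37% lower. Without library 40 the count of higher members was 2, without library 37 it was 4, and without library 11 it was 11. MHC class II genes, also inducible by interferon but carried by antigen-presenting cells, had 8 positive values of 10 with 0 at an unadjusted p under 0.05 (median 0.26).

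Matrix genes gave small and mixed differences. Of 32 tested collagen chains, 3 were higher and 1 lower at an unadjusted p under 0.05, where 3.58% of all genes were higher and 5.05% lower, and the median was 0.05 in HNKO and -0.22 in WT. Col14a1, a chain that associates with fibrils, did not overlap, with 6.61 to 7.11 log2 CPM at day 12 (median 6.96) and 7.45, 7.29, and 7.37 at day 21 (0.45 ± 0.14, unadjusted p = 0.00346, adjusted p = 0.485). Libraries 35 to 40 alone gave 0.49, and libraries 17 and 18 were at 7.02 and 7.69. Col13a1, a transmembrane collagen, lay the other way without overlap, at 2.65 to 2.91 at day 12 and 2.17, 2.47, and 1.83 at day 21 (-0.65 ± 0.23), with -0.43 in WT. Col4a5, a basement membrane chain, had 0.62 ± 0.28. Library 37 was above every day-12 liver in 14 of the 32 collagens, library 38 in 2, and library 40 in 3, so the list did not move together across the day-21 livers. Leaving out library 38 gave 6 higher and 2 lower, and leaving out library 37 gave 1 and 1.

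Stellate cell and myofibroblast genes had 2 higher (8.33%) and 0 lower of 24, beside the same shares of all genes (median 0.12, and -0.22 in WT). Reln, a secreted glycoprotein that marks stellate cells, was at 7.37 to 7.78 log2 CPM at day 12 (median 7.53) and at 8.02, 7.77, and 8.07 at day 21, with library 38 level with the highest day-12 value (0.40 ± 0.12, unadjusted p = 0.00272, adjusted p = 0.485). WT gave 0.05 (unadjusted p = 0.0433 for the difference), and libraries 35 to 40 alone gave 0.45. Lum, a keratan sulfate proteoglycan of collagen fibrils, was at 3.54 to 4.88 and at 5.70, 3.89, and 4.74 (0.82 ± 0.36), so only library 37 exceeded the day-12 range. Fn1, fibronectin, which hepatocytes also make and which was the most abundant of the list, had -0.07 ± 0.19. Among 30 genes of matrix remodelling, 1 was higher at an unadjusted p under 0.05, Mmp15, a membrane-bound metalloproteinase (0.53 ± 0.24), and its value came mainly from library 37 (6.54, against 5.08 to 5.75 at day 12). The TGF-beta pathway had 1 higher and 0 lower of 23, Tgfbr1, the type I receptor (0.26 ± 0.12, unadjusted p = 0.0319), with a list median of -0.0029.

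Ductal and oval cell genes had 2 higher and 2 lower members of 24 (8.33% each, where 3.58% of all genes were higher and 5.05% lower, median 0.13, and -0.23 in WT). Beside Pkhd1, the higher member was Spp1, osteopontin, a matricellular protein of injured ducts, at 6.53 to 7.69 log2 CPM at day 12 (median 7.17) and 8.86, 6.94, and 7.74 at day 21 (0.93 ± 0.36, unadjusted p = 0.0154, adjusted p = 0.503). Libraries 37 and 40 exceeded the day-12 range and library 38 did not. The Spp1 value rested on library 37, without which it was 0.26 (unadjusted p = 0.521), and over the alternatives it ran from 0.26 to 1.28. Of its exon bases, 18.8% overlap another annotated gene on the same strand, so its counts are less certain. Krt19, the keratin that defines bile duct cells, had -2.63 ± 0.79 (unadjusted p = 0.00212), but this rested on library 35, which was at 5.33 while the other 5 day-12 livers were at 0.28 to 1.70 and the day-21 livers at 0.40, 0.12, and 0.94. Over the alternatives the Krt19 value ran from -3.92 to -0.68. Aqp1, a water channel of ducts and vessels and the most abundant member, had -0.01 ± 0.15.

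Mitochondrial RNA had the lowest medians apart from blood. The 12S and 16S rRNAs, mt-Rnr1 and mt-Rnr2, had log2 fold changes of -1.56 ± 0.32 (unadjusted p = 2.23e-05, adjusted p = 0.172) and -1.34 ± 0.31 (unadjusted p = 0.00013). DESeq2 called both (adjusted p = 0.000283 and 0.00235), and with libraries 17 and 18 included the edgeR values were -0.39 and -0.59. The levels of mt-Rnr1 were 12.28, 12.32, 12.33, 12.14, 11.52, and 10.26 log2 CPM in libraries 11, 12, 13, 32, 35, and 36, and 10.20, 10.75, and 10.14 in libraries 37, 38, and 40. Libraries 35 and 36 of day 12 are the lowest of their group, WT library 39 of day 21 (11.32) is low beside the other WT livers of day 21 (12.62 or higher), and the failed libraries 17 and 18 of HNKO at day 21 had 12.70 and 12.18. Within libraries 35 to 40 the difference was -0.62 for mt-Rnr1 (unadjusted p = 0.16) and -0.33 for mt-Rnr2 (unadjusted p = 0.457). Ribosomal RNA was depleted before sequencing, and the part of that step in these values was not tested.

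The 8 tested mitochondrial mRNAs, which encode subunits of the respiratory chain, were all lower at day 21, 4 of them at an unadjusted p under 0.05 (median -0.68), where 5.05% of all genes were lower. WT liver gave 4 of 8 as well (median -0.59), where 6.81% of all genes were lower, and the difference between genotypes had an unadjusted p under 0.05 in 0 of the 8. The levels of mt-Nd6, the transcript of the light strand, were 7.89, 7.98, 8.36, 7.15, 7.12, and 7.04 log2 CPM in the day-12 libraries 11, 12, 13, 32, 35, and 36, and 6.53, 6.93, and 6.48 at day 21 (-1.02 ± 0.36, unadjusted p = 0.00778, against -1.13 in WT). Libraries 11, 12, and 13 were high, and libraries 32, 35, and 36 were close to day 21. The median log2 fold change was -0.34 with the label series (libraries 1 to 21 and 22 to 41) as a covariate, with 1 member at an unadjusted p under 0.05, and -0.20 within libraries 35 to 40. Without library 37 the count of 4 became 1. Respiratory chain subunits encoded in the nucleus had a median of 0.0012 over 74 genes, with 0 higher and 6 lower at an unadjusted p under 0.05, and 1 higher and 1 lower without library 37. Ndufs6, a complex I subunit, had the smallest p of these (-0.53 ± 0.18, unadjusted p = 0.00551), and WT gave -0.50.

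**Figure D4:**
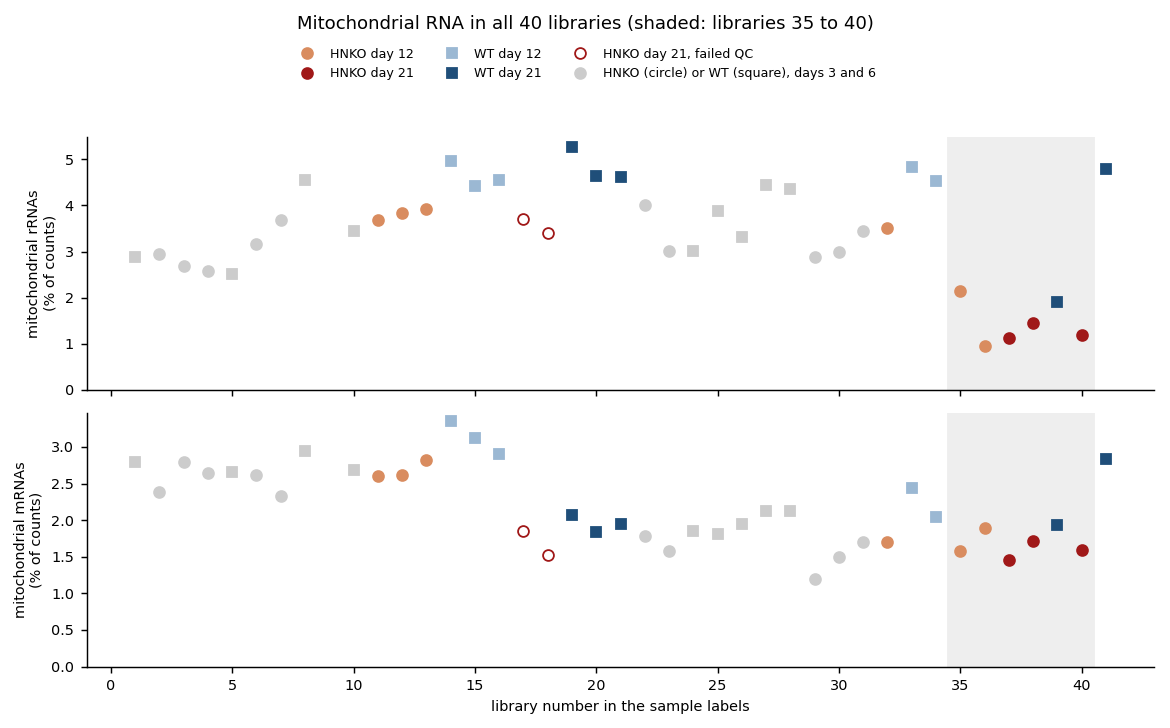
The vertical axes give the percent of counts on the 2 mitochondrial rRNAs (upper panel) and on the mitochondrial mRNAs (lower panel), and the horizontal axis gives the library number, with libraries 35 to 40 shaded. Each point is a liver, filled by genotype and day, and open points are the failed libraries. The rRNA share is 0.949 to 2.14% in the shaded libraries and 2.50 to 5.27% in the other kept ones.

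Rps16, a protein of the small ribosomal subunit, belongs to no list and was singled out after its values were seen, since its values followed those of mt-Rnr1. It was at 5.78, 6.02, 5.61, 5.47, 3.50, and 2.11 log2 CPM in libraries 11, 12, 13, 32, 35, and 36, and at 2.47, 3.19, and 2.54 in libraries 37, 38, and 40 (-2.50 ± 0.51, unadjusted p = 2.35e-05, adjusted p = 0.172). WT library 39 was at 3.23 and the other WT livers of both days at 5.46 to 5.95. Low values were thus found in libraries 35 to 40 of both days and both genotypes. Of the 51-base stretches of Rps16, 33.4% occur in other genes, mostly its pseudogene Rps16-ps2. Among 46 proteins of the large ribosomal subunit, 3 were higher (6.52%) and 2 lower (4.35%) at an unadjusted p under 0.05, with a median of 0.08. Of all genes, 3.58% were higher and 5.05% lower.

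Genes of amino acid breakdown had mostly negative values in both genotypes. Of 28 genes of the urea cycle and amino acid catabolism, 26 had negative values and 4 were lower at an unadjusted p under 0.05 (14.3%, where 5.05% of all genes were lower), with a median of -0.30 in HNKO and -0.28 in WT. Library 37 had the lowest levels, with 22 of the 28 genes below every day-12 liver, against 6 in library 38 and 10 in library 40. Gnmt, which methylates glycine and draws on S-adenosylmethionine, was at 9.48 to 10.09 log2 CPM at day 12 (median 9.82) and 8.57, 9.26, and 9.29 at day 21, without overlap (-0.73 ± 0.27, unadjusted p = 0.00933, adjusted p = 0.485). Got1, the cytosolic aspartate aminotransferase, had -0.88 ± 0.33, and library 38 (8.16) lay within the day-12 range of 7.93 to 8.83. Tat, tyrosine aminotransferase, was at 9.64 to 10.76 at day 12 and at 8.73, 10.24, and 9.29 at day 21 (-0.76 ± 0.31). Without library 37 no member had an unadjusted p under 0.05 (0 of 28), and without library 38 there were 8, while without library 40 there were 2.

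De novo lipogenesis, the making of fatty acids from acetyl-CoA, had 20 negative values of 20 but none at an unadjusted p under 0.05 (median -0.38, and -0.59 in WT). The day-12 livers were spread widely. In the median member, libraries 35 and 36 stood 0.75 and 0.73 above the day-12 mean and library 32 stood 0.84 below it. Acly, ATP citrate lyase, was at 9.29, 9.76, 9.17, 8.05, 11.004, and 11.09 log2 CPM in libraries 11, 12, 13, 32, 35, and 36, and at 9.19, 9.68, and 8.65 in libraries 37, 38, and 40 (-0.87 ± 0.70, unadjusted p = 0.222). The 3 day-21 livers were inside the range of day 12. Within libraries 35 to 40 the list had 13 lower members (median -1.09), where 3.37% of 19125 genes were lower, and without libraries 35 and 36 it had 0 and a median of 0.03, so its direction rested on this pair of livers.

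Clock genes also ran with single livers. None of 21 had an unadjusted p under 0.05 in HNKO, whereas in WT 4 were higher and 4 lower, where 5.61% of all genes were higher and 6.81% lower. The difference between genotypes had an unadjusted p under 0.05 in 0 of the 21. Arntl, which encodes BMAL1, was at 1.56 to 4.07 log2 CPM at day 12 and at 3.43, 1.92, and 1.76 at day 21 (-0.67 ± 0.69, and -1.93 in WT with unadjusted p = 0.00351). Npas2, a partner of BMAL1, had -0.92 ± 0.87 in HNKO and -2.54 in WT. These genes cycle over the day, and the hour at which each liver was taken is not given in the sources used here. Of the 21, 8 were higher and 4 lower within libraries 35 to 40, where 3.29% of 19125 genes were higher and 3.37% lower.

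Genes of the growth hormone axis and with sex-biased expression had 3 higher and 0 lower of 32 at an unadjusted p under 0.05 (median 0.28, and -0.03 in WT), where 3.58% of all genes were higher. Hsd3b5, a steroid reductase usual in male liver, was at -3.27 to 0.76 log2 CPM at day 12 and at -1.58, 1.01, and 4.59 in libraries 37, 38, and 40 (3.64 ± 1.16, unadjusted p = 0.00345), so library 40 gave most of its value. Socs2, a feedback inhibitor of growth hormone signaling, was at 3.45 to 5.88 and at 5.54, 5.54, and 6.06 (1.03 ± 0.45), and libraries 37 and 38 lay within the day-12 range. Mup20, a major urinary protein, was at 5.41 to 7.72 and at 9.24, 5.38, and 7.43 (1.54 ± 0.69), and all 9 HNKO livers exceeded the WT maximum of 4.74. For Mup20, 50.1% of the 51-base stretches are shared with related genes.

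Glucose metabolism had 2 higher and 2 lower of 30, where 3.58% of all genes were higher and 5.05% lower. The libraries of the days did not overlap in 1 higher and 2 lower members, beside 1.74% and 2.01% of all genes. Pdk2, the kinase that shuts pyruvate dehydrogenase, was at 5.56 to 6.15 log2 CPM at day 12 (median 5.97) and at 5.10, 5.35, and 5.13 at day 21 (-0.73 ± 0.23, unadjusted p = 0.00297, adjusted p = 0.485). Pfkfb3, which makes the activator of phosphofructokinase, was at 3.12 to 4.62 and at 5.07, 4.74, and 4.82 (0.67 ± 0.28, and 0.04 in WT). Pfkfb1, another form of that enzyme and the third member without overlap, named for that reason after its values were seen, had -0.35 ± 0.19 (unadjusted p = 0.0725), and -0.36 in WT. Bile acid genes had 2 higher of 28. Slco1a1, an uptake carrier of sinusoidal hepatocytes, varied from 3.87 to 7.26 at day 12 and from 4.77 to 8.28 at day 21 (1.63 ± 0.72), and Abcb4, the phospholipid floppase of the canaliculus, was at 8.37 to 8.74 and at 8.97, 8.95, and 8.81 without overlap (0.31 ± 0.15). Among 21 NRF2 targets 1 was higher and 2 lower, with Gclm, a subunit of the enzyme that starts glutathione synthesis, at 0.26 ± 0.11 and Gstm1, a glutathione transferase, at -0.54 ± 0.18. Conjugation enzymes had 2 higher and 4 lower of 40, and cytochromes P450 0 and 1 of 42. PPARA targets had 0 and 1 of 46, the lower gene being Fabp4 (-1.35 ± 0.45), a lipid-binding protein of fat cells and macrophages.

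Stress pathways and liver identity genes had few members at an unadjusted p under 0.05, where 3.58% of all genes were higher and 5.05% lower. The integrated stress response had 1 higher and 2 lower of 30, heat shock and ER chaperones 0 and 2 of 28, and immediate early genes 1 and 0 of 18. The higher gene of the stress response and of the immediate early list was Atf3, a transcription factor induced by many stresses, at 0.96 to 3.34 log2 CPM at day 12 and 3.92, 4.47, and 2.89 at day 21 (1.17 ± 0.51). Library 40 was within the day-12 range. Cholesterol synthesis had 0 and 1 of 25. Of pericentral, periportal, and fetal liver genes, 0 of 20, 0 of 19, and 0 of 11 were higher and 0, 1, and 0 were lower. Hepatocyte identity genes had 0 higher and 3 lower (13%) of 23 (median -0.17, and -0.12 in WT). Alb had -0.13 ± 0.20, and Apoc3, an apolipoprotein, had -0.35 ± 0.16. Small structural RNAs had 0 of 10 in either direction. All 44 lists together held 1042 tested genes, of which 64 were higher and 61 lower at an unadjusted p under 0.05, 0 were called, and the median was 0.0026.

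Markers of other cells were compared to see whether cell types moved with the day. Kupffer cell and macrophage markers gave 0 of 24 in either direction (median 0.05), where 3.58% of all genes were higher and 5.05% lower. Their summed levels were 812 to 1465 CPM at day 12 and 1144 to 1460 CPM at day 21. Cd5l, their most abundant member, had 0.05 ± 0.21, and Ccr2, the receptor of recruited monocytes, was at 1.68 to 3.64 log2 CPM at day 12 and at 4.57, 2.27, and 3.59 at day 21 (0.77 ± 0.47). Library 37 alone exceeded the day-12 range of Ccr2. Endothelial markers gave 0 of 22 (median -0.02), and Ptprb, their most abundant member, had -0.08 ± 0.10. Neutrophil markers gave 0 of 9 (Csf3r -0.41 ± 0.33), and T, NK, and B cell markers 0 of 17 (Cd79b -0.29 ± 0.37). Chemokine ligands had 1 higher of 20 (5%, beside 3.58% of all genes). That gene was Cxcl5, at -3.29 to -0.94 log2 CPM at day 12 and 0.47, -3.11, and -0.91 at day 21.

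Red blood cell genes were lower in 7 of 9 at an unadjusted p under 0.05 (median -1.68), where 5.05% of all genes were lower. In WT liver 2 of 9 were lower (median -1.06), where 6.81% of all genes were. The HNKO count rested on library 35. In that day-12 liver they took 0.0784% of the counts, and Hbb-bs, a beta globin, was at 8.88 log2 CPM against 5.12 to 7.004 in the other 5 and 5.18, 5.89, and 5.599 at day 21. Without library 35 the count was 0 of 8 with a median of -0.46, and without library 37 it was 2. Library 35 was thus high in globins and in Krt19. Genes of fat, muscle, and pancreas, tissues that lie next to the liver, varied between single livers. They summed to 7.93 to 688 CPM at day 12, with library 11 highest, and to 523, 13.3, and 19.9 CPM in libraries 37, 38, and 40, and 5 of 14 were lower at an unadjusted p under 0.05, beside the same 5.05%. Adipoq, the fat cell hormone adiponectin, was at 2.63 log2 CPM in library 11 and 2.49 in library 32, while libraries 12, 36, 38, and 40 were at -3.80, where a count of 0 is placed. Cela1, an elastase and the most abundant of these genes, had 0.34 ± 0.36. Without library 11 the list had 1 higher and 1 lower, and without library 40 it had 0 and 0. The part of such tissue in the results for other genes was not tested.

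**Figure D5:**
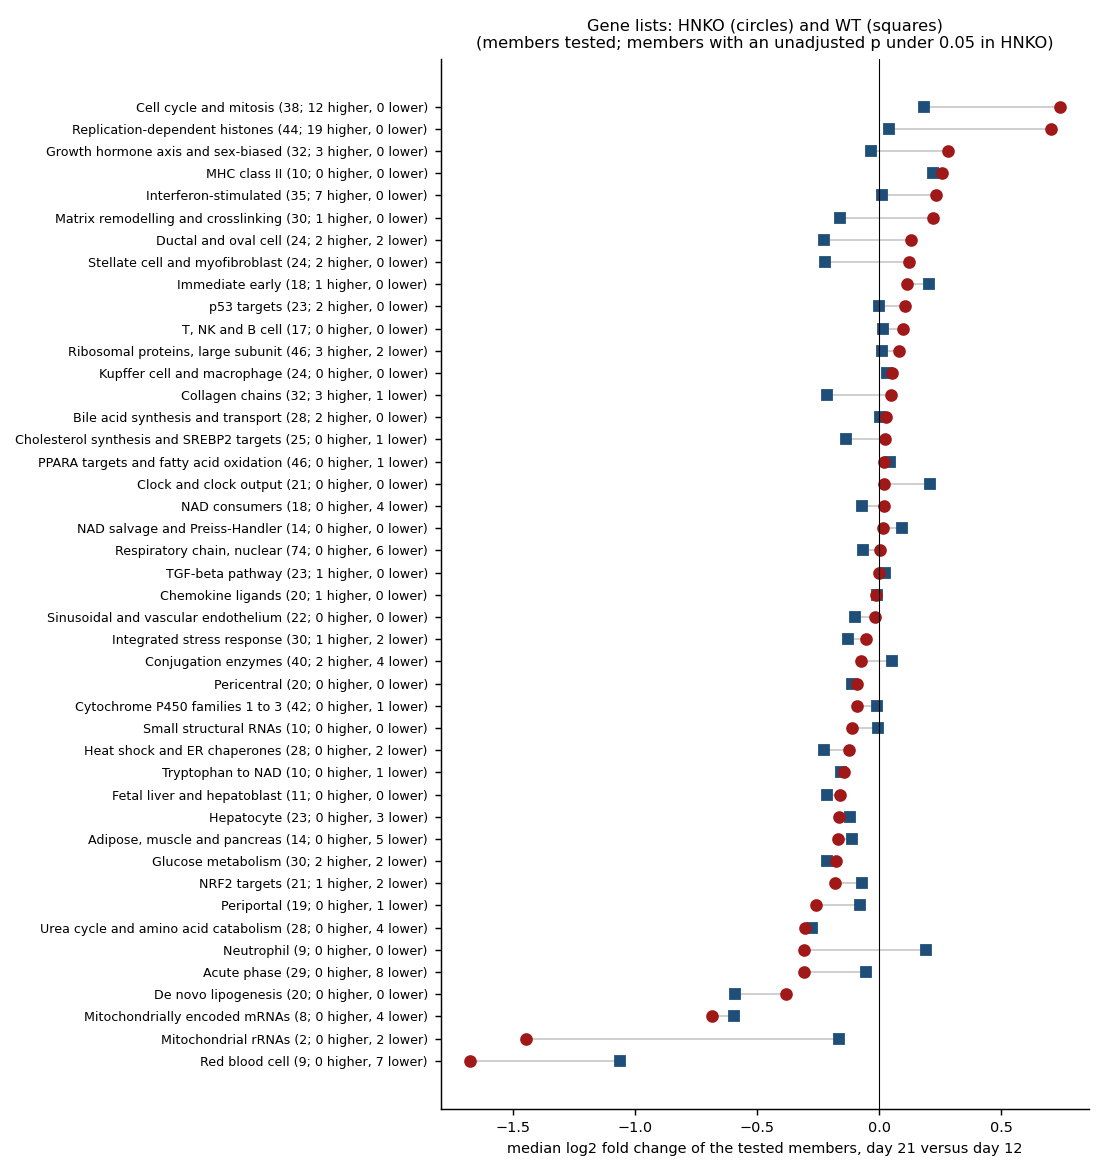
The median log2 fold change of day 21 over day 12 (horizontal axis) is shown for each of the 44 lists (vertical axis), with circles for HNKO and squares for WT. Cell cycle genes (0.74) and histones (0.70) lie at the upper end in HNKO and near 0.18 and 0.04 in WT, and red blood cell genes (-1.68) lie at the lower end.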

How the data were processed

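Livers were frozen after part of the median lobe had been taken for histology, total RNA was depleted of rRNA with RiboZero, and stranded libraries were sequenced as 51-base paired ends. The authors aligned reads with STAR 2.7.2b to GRCm38 (GENCODE M22), counted pairs per gene with featureCounts 1.6.4, and deposited raw counts per gene. Whether counting used the strand is not given in the sources used here. From these counts, 38 libraries in 8 groups (2 genotypes, 4 days) were fitted together with edgeR 4.0.16 in R 4.3.3, with TMM normalization, a low-count filter by group (minimum count 10, minimum total 15, proportion 0.7, keeping 99.937% of counts), the quasi-likelihood F test with 1 mean per group, and Benjamini-Hochberg adjustment over all 20297 genes. Fold changes are day 21 over day 12 on the log2 scale, log2 CPM has a prior count of 2, and standard errors are the log2 fold change divided by the square root of F. The 44 gene lists and the comparison itself were chosen with earlier results of these data known. Named genes were Nampt, the 10 higher and 10 lower genes with a symbol, non-overlapping libraries, and the smallest unadjusted p, the members of each list with the smallest p, up to 3, and the most abundant member of each cell marker list, except that a pair of genes is not reported here. Phrases such as higher in a count of members refer to an unadjusted p under 0.05. Total counts of the 38 libraries were 16151037 to 64181492. Chi-square per gene between libraries of a group was 13.96 to 170.2 over 38 pairs, so no pair was 1 library deposited again. Fits with DESeq2 1.42.0 and other settings are compared in the closing part. Gene positions and overlaps were taken from GENCODE M21 on the same build. The procedure was also run on simulated data with larger changes than those of the 20 top genes. That run does not show whether differences as small as theirs would be called.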

Additional observations from a re-analysis of the deposited data

Results flagged for a closer look

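Single livers that stood far from the others of their group were searched for in 195 sets of values from the HNKO livers of day 12 (6 libraries) and the WT livers of day 12 and day 21 (5 libraries each), over 57 genes and the shares and summed levels, with Dixon's ratio at its 95% critical value, which chance passes in about 1 of 20 sets. There were 20. In HNKO livers of day 12, library 35 was high in Krt19 (5.327 log2 CPM) and in the share of red blood cell genes (0.0784% of counts). Library 32 was high in Pdlim5 (6.536) and low in Aurkb (-2.477), library 36 was low in Fam104a (2.8), and library 11 was high in the summed level of fat, muscle, and pancreas genes (687.9 CPM).

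In WT livers of day 12, library 16 was high in Nampt (7.243 log2 CPM) and low in Rras2 (3.912), Hist1h4n (-0.862), Npas2 (-1.298), and Arntl (1.273). Library 14 was high in Gtf3c5 (3.404) and library 15 in Ntn4 (4.61). In WT livers of day 21, library 39 was low in Fam104a (2.705), Parp1 (5.426), mt-Rnr1 (11.319), mt-Rnr2 (13.931), and the share of mitochondrial rRNA (1.91%). Library 41 was low in Hist1h4f (1.413) and high in the share of mitochondrial mRNA (2.84%). The 3 HNKO libraries of day 21 were too few for this search. No difference between genotypes in the effect of the interval was called by edgeR (0 of 20297 genes, with 637 at an unadjusted p under 0.05, and 0 called by DESeq2).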

How the results depend on the processing

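The count of called genes in HNKO liver was 0 with edgeR and 15 with DESeq2. It was 83 (57 of them higher) with all 40 libraries, including the 2 that failed quality control. Without libraries 35 and 36, a setting chosen after seeing the data, it was 27 (2 of them higher). Leaving out 1 library at a time gave 0 to 5, with 2 without library 35 (Rps16 and Gm9968) and 5 without library 36 (Tfip11, Rps16, mt-Rnr1, mt-Rnr2, and Spint2). In WT liver the count of 1 became 2 with RLE size factors, 92 with DESeq2, 5 with at least 10 counts in every library, 0 with only the groups of the comparison, 10 with the edgeR 4 computation, 241 with the label series as a covariate, and 0 with only the libraries numbered 22 to 41. Leaving out 1 WT library at a time gave 1 to 70, with 70 without library 16, 23 without library 33, and 18 without library 41. The interaction gave 0 in all 30 alternatives. List members called in HNKO were 6 with DESeq2, 5 with all 40 libraries, 2 without library 36, and 3 without libraries 35 and 36. For 34 named genes and the count of called list members, 736 values under the alternatives kept their direction without newly passing the threshold. A further 24 newly passed it, the 4 counts just given moved, and 0 reversed. The 736 include values to which DESeq2 gave no adjusted p, such as those of Gtf3c5 and Aurkb. The cause of these moves was not tested. No paired analysis was possible because the libraries of the 2 HNKO days share no number. With 3 livers at day 21, the median standard error was 0.227 on the log2 scale, and the part of sequencing depth in it was not tested. Library number and day overlap in part. The mt-Rnr1 value was -0.57 (unadjusted p = 0.0246) and the mt-Rnr2 value -0.30 (unadjusted p = 0.188) with libraries 35 to 40 as a covariate, a setting chosen after seeing the data.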
